A study of Homo sapiens with 23 samples.

Results

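The genes described here are 10 genes that set the entry of a cell into DNA synthesis: the CIP/KIP inhibitors CDKN1B and CDKN1C, the INK4 inhibitors CDKN2A, CDKN2B, CDKN2C and CDKN2D, the kinases CDK4 and CDK6, and the D cyclins CCND1 and CCND3. They were chosen by name from the 28105 genes with a symbol in the RNA-seq tables, and all 10 had enough reads to be tested. Their RNA was measured in HCT116, a human colorectal carcinoma line, in 8 poly(A) libraries. 2 libraries came from MLL4 KO cells, set against 2 from WT cells, and 2 from BAP1 KO cells, set against 2 from cells called control. The gene KMT2D encodes MLL4, the enzyme behind much of the H3K4 monomethylation at enhancers, and BAP1 takes the Polycomb ubiquitin mark off histone H2A. The labels give both unedited groups a wild-type genotype. The table names of the BAP1 KO and control libraries also contain the word osTir1, the name of a rice auxin receptor with which tagged proteins can be degraded, and those of the MLL4 KO and WT libraries do not. The numbers in these names differ between replicates. The labels do not say whether the replicates are clones or cultures of 1 clone, so the p-values measure the spread between these libraries, which may be technical.

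Cyclin D binds CDK4 or CDK6, and the complex phosphorylates RB, which then releases E2F factors to transcribe genes of DNA synthesis. The INK4 proteins (p16 from CDKN2A, p15 from CDKN2B, p18 from CDKN2C, p19 from CDKN2D) bind CDK4 and CDK6 and keep them from cyclin D. The CIP/KIP proteins (p27 from CDKN1B, p57 from CDKN1C) bind cyclin and kinase together and inhibit chiefly CDK2 complexes. CDKN2A also encodes ARF, an unrelated protein read in another frame from its own first exon, which holds back MDM2 and so preserves p53. Loss of INK4 genes and gain of D cyclins are common in tumors.

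The libraries held 24.8 to 42.2 M counts over genes. Levels of 1 gene are given below as CPM, the count per 1000000 counts of the library, after scaling the libraries by TMM. KMT2D had 280 and 406 CPM in MLL4 KO, against 309 and 371 CPM in WT, and BAP1 had 67.4 and 57.4 CPM in BAP1 KO, against 56.7 and 62.1 CPM in control. Since the labels do not say which part of either gene was deleted, these totals do not check the labels. Of 12 markers of colon epithelium, the keratin gene KRT8 (1228 to 3015 CPM) and the adhesion gene EPCAM (109 to 413 CPM) were high. Below 1 CPM in every library were 4 of the 12, among them CDX1 and TFF3, which had no read. Of 9 tested epithelial markers, 3 rose and 1 fell in MLL4 KO at an adjusted p below 0.05, and 1 rose and 6 fell in BAP1 KO. Between control and WT, 4 were higher and 0 lower in control. Of all tested genes, 19.1% were called in MLL4 KO, 22.4% in BAP1 KO and 39.6% between control and WT. Their summed level was 5348 to 5367 CPM in MLL4 KO, against 3651 to 3688 CPM in WT, and 2904 to 3388 CPM in BAP1 KO, against 5528 to 5536 CPM in control. A large part of this sum was KRT8, with 3015 and 2893 CPM in MLL4 KO, against 1783 and 1758 CPM in WT. EPCAM, the 1 marker that fell in MLL4 KO, had 109 and 119 CPM there, against 214 and 282 CPM in WT. The sum thus does not stand for each marker. Markers of fibroblasts, immune cells and endothelium were below 1 CPM in every library for 7 of 8, 5 of 6 and 2 of 4 genes. The collagen gene COL1A1 of the fibroblast list had 25.5 to 54.9 CPM. The lysosomal gene CD68, listed with the immune markers, had 27.3 and 28.2 CPM in control and 4.03 to 9.01 CPM in the other libraries.

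The control libraries differed from WT in many genes. Of the 16831 genes tested, 39.6% differed between control and WT at an adjusted p below 0.05, against 19.1% between MLL4 KO and WT and 22.4% between BAP1 KO and control. These shares come from a model in which all 8 libraries share an estimate of the spread. Fitted on its 4 libraries alone, control against WT called 6300 genes, BAP1 KO against control 6659 and MLL4 KO against WT 60. The order of these comparisons thus depends on the fit. The summed level of 12 proliferation genes was 1885 to 2454 CPM in MLL4 KO, against 3095 to 3659 CPM in WT, and 1235 to 1475 CPM in BAP1 KO, against 600 to 601 CPM in control. The part of these differences, and of those in the epithelial markers, in the results on the 10 genes was not tested. In bulk libraries, a change in the make-up of the culture, such as fewer cycling cells, and a change in RNA per cell cannot be told apart.

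CDKN1B rose in both knockouts, and CDKN1C rose in MLL4 KO. CDKN1B (GRCh38 chromosome 12, 12717368 to 12722369) encodes p27, an inhibitor that accumulates in resting cells. Its promoter window is shown because RNA of this gene was higher in both knockouts. In the RefSeq sequence of GRCh38.p14 (chr12:12717118-12717417, plus strand, from 250 bases before to 50 bases after the start), capitals mark the GC box GGGCGG on either strand:
CDKN1B: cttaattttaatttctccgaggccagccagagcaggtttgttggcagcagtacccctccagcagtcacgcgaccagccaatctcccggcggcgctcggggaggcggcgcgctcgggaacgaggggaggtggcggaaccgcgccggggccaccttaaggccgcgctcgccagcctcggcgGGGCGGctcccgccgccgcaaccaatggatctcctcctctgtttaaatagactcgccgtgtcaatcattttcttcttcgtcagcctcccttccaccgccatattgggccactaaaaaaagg
The window holds 29 CG dinucleotides, against a median of 14 over all 35116 RefSeq promoter windows, and 1 GC box, which 44.95% of the windows hold on at least 1 strand. It also holds 3 CCAAT boxes (CCAAT, both strands), a number that 3.26% of the windows reach.

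CDKN1B had 72.8 and 59.5 CPM in MLL4 KO, against 33.0 and 26.3 CPM in WT. In BAP1 KO it had 67.2 and 67.8 CPM, against 47.7 and 44.5 CPM in control. Both MLL4 KO libraries lay above both WT libraries, and both BAP1 KO libraries above both control libraries. The log2 fold change was 1.16 ± 0.15 (SE, adjusted p = 0.0054) in MLL4 KO, a 2.23-fold higher level, and 0.55 ± 0.15 (adjusted p = 0.0274) in BAP1 KO, a 1.46-fold higher level. The difference between these effects was 0.61 ± 0.21 on the log2 scale and missed the threshold (adjusted p = 0.0769). The starting levels differed too: control averaged 46.1 ± 2.27 CPM and WT 29.6 ± 4.70 CPM (SD, n = 2 each), a log2 difference of 0.64 ± 0.15 (adjusted p = 0.00898). The call in BAP1 KO was lost without any 1 of its 4 libraries (adjusted p 0.102 to 0.222), and the log2 value then ranged between 0.49 and 0.59. The call in MLL4 KO was lost in a fit of its 4 libraries alone (adjusted p = 0.0663).

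CDKN1C (chromosome 11, 2883218 to 2885775) encodes p57 and is an imprinted gene expressed chiefly from the maternal copy. It had 19.5 and 21.4 CPM in MLL4 KO, against 11.9 and 6.56 CPM in WT. It had 13.8 and 16.6 CPM in BAP1 KO, against 17.6 and 20.3 CPM in control. Neither pair of groups overlapped, and WT replicate 2 had the lowest level of the 8 libraries. The log2 fold change was 1.16 ± 0.25 (adjusted p = 0.0183) in MLL4 KO and -0.32 ± 0.24 (adjusted p = 0.372) in BAP1 KO, and the effects differed by 1.49 ± 0.35 (adjusted p = 0.0213). The call in MLL4 KO was lost without WT replicate 2 (log2 0.78, adjusted p = 0.0638) and without MLL4 KO replicate 2 (log2 1.11, adjusted p = 0.0834), as well as in the fit of 4 libraries (adjusted p = 0.0958). The call on the difference between the knockouts was lost without MLL4 KO replicate 2 (adjusted p = 0.0579) or without any 1 of the BAP1 KO replicate 1 and control libraries (adjusted p 0.0653 to 0.103).

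CDKN1A, the CIP/KIP gene outside the list, encodes the p53 target p21. It rose in MLL4 KO, with 326 and 425 CPM against 200 and 113 CPM in WT (log2 1.26 ± 0.26, adjusted p = 0.0188). It had 361 and 459 CPM in BAP1 KO, against 437 and 444 CPM in control (log2 -0.10 ± 0.26, adjusted p = 0.808). All 3 CIP/KIP genes were thus called higher in MLL4 KO, and CDKN1B alone of the 3 was called in BAP1 KO. Over all tested genes, 9.13% were called higher in MLL4 KO and 12.1% in BAP1 KO.

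**Figure D1:**
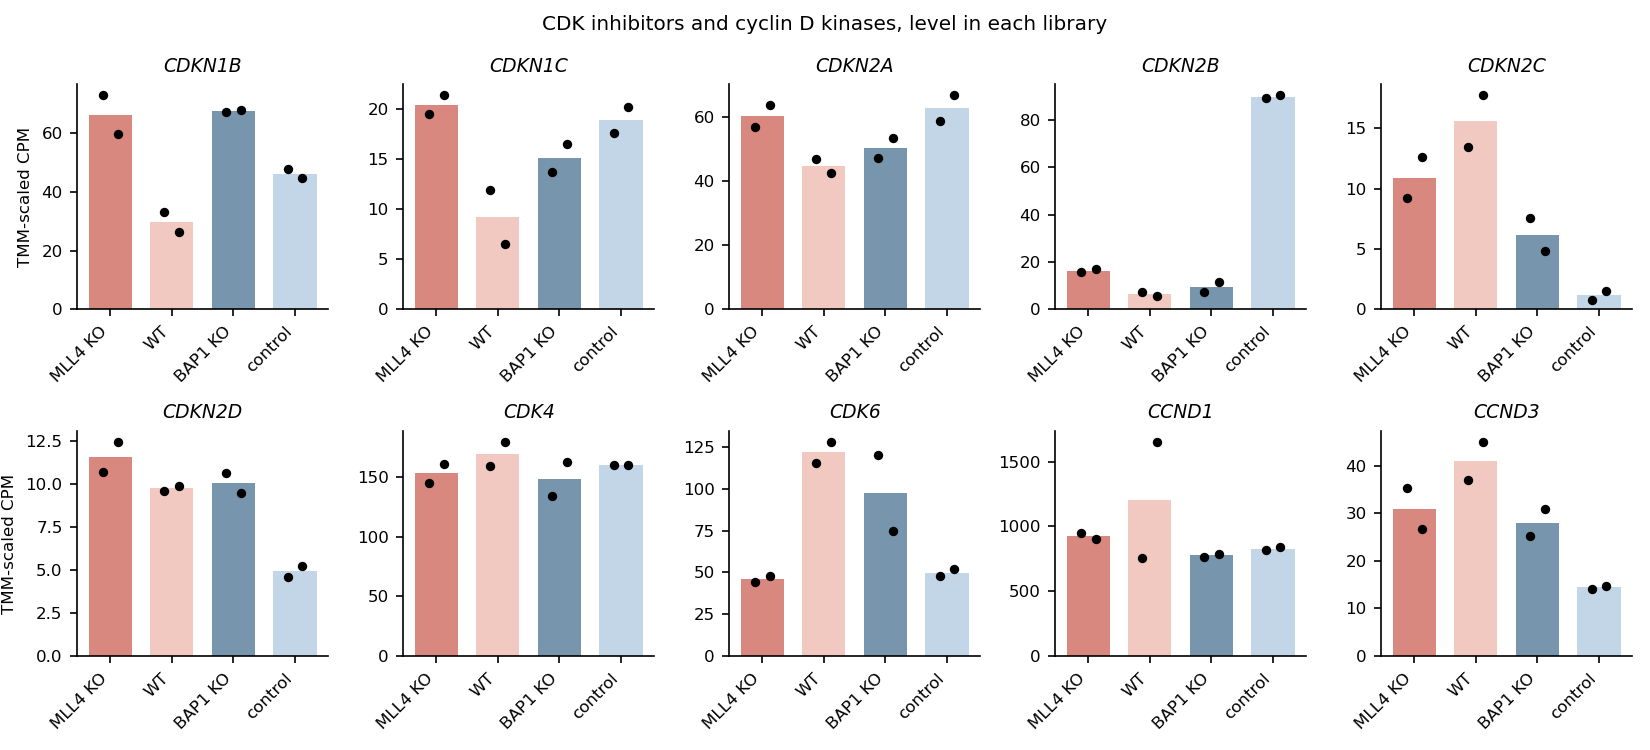
Level of each of the 10 genes in TMM-scaled CPM (vertical axes, from 0, 1 scale per gene) in MLL4 KO, WT, BAP1 KO and control; dots are libraries and bars are means of 2 libraries. CDKN2B stands at 89.1 and 90.3 CPM in control and at 16.9 CPM or less in the other 6 libraries, and CCND1 reaches 1653 CPM in WT replicate 2.

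The INK4 genes moved in different directions, and CDKN2B and CDKN2C differed most between the groups. CDKN2A and CDKN2B are neighbours on chromosome 9 with a gap of 7.58 kb, and CDKN2C is on chromosome 1. Their promoter windows are shown because CDKN2B, CDKN2C and the ARF row of CDKN2A carry the contrasts below. Each is the RefSeq sequence of GRCh38.p14 on the gene's strand, with GC boxes (GGGCGG, either strand) in capitals, for CDKN2A at the p16 start (chr9:21974808-21975107, minus) and the ARF start (chr9:21995275-21995574, minus), for CDKN2B (chr9:22009256-22009555, minus) and for CDKN2C at the one of its 3 RefSeq starts that is richest in CG (chr1:50968456-50968755, plus):
CDKN2A p16: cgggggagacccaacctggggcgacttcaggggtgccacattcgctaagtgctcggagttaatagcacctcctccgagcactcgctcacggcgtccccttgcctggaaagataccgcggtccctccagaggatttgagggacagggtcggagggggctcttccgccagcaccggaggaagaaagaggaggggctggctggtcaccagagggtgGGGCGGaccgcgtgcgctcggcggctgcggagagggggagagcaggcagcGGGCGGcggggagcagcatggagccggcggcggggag
CDKN2A ARF: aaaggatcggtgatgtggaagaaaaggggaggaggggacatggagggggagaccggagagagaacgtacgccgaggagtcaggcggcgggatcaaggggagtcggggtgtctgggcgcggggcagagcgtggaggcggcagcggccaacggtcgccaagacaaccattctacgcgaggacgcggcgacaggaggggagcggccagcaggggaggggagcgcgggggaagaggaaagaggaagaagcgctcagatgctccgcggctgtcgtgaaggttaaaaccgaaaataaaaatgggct
CDKN2B: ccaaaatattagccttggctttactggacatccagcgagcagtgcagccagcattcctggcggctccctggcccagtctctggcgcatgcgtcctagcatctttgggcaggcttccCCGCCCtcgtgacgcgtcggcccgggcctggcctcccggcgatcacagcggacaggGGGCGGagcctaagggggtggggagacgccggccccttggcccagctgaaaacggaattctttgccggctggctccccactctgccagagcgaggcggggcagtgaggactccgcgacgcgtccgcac
CDKN2C: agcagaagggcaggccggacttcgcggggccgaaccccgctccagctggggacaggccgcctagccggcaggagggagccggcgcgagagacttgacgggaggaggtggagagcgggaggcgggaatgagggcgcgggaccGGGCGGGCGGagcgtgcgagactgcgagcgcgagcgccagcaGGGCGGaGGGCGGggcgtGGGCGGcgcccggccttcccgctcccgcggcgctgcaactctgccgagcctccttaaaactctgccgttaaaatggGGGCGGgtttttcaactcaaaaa
The CDKN2A windows hold 26 CG dinucleotides at the p16 start and 28 at the ARF start, the CDKN2B window 25 and the printed CDKN2C window 37. The p16 and CDKN2B windows hold 2 GC boxes each, the ARF window 0, and the printed CDKN2C window 6 counting overlapping matches. The other CDKN2C windows hold fewer: 8 CG dinucleotides and 0 GC boxes at chr1:50960495-50960794, the start of the gene, and 11 CG dinucleotides and 1 GC box at chr1:50969995-50970294. A count of 3 or more is found in 15.8% of all windows.

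CDKN2B (chromosome 9, 22002903 to 22009313) encodes p15, an inhibitor induced by TGF-beta in epithelial cells. It had 15.8 and 16.9 CPM in MLL4 KO, against 7.37 and 5.50 CPM in WT. It had 7.43 and 11.6 CPM in BAP1 KO, against 89.1 and 90.3 CPM in control, from 233 and 327 counts in BAP1 KO and 2275 and 3523 in control. The control libraries were thus far above the other 6, and BAP1 KO lay in the range of WT and MLL4 KO. CDKN2B rose in MLL4 KO by 1.35 ± 0.22 on the log2 scale (adjusted p = 0.00943), and in BAP1 KO it fell by 3.24 on the log2 scale (SE 0.22, adjusted p = 3.65e-05), to a 9.40-fold lower level. The effects differed by 4.59 ± 0.31 (adjusted p = 0.000128). Control exceeded WT by 3.81 ± 0.22 (adjusted p = 1.16e-05), a 13.9-fold difference. The calls in BAP1 KO, on the difference and between control and WT held under each alternative tried, and that in MLL4 KO was lost in the fit of its 4 libraries alone (adjusted p = 0.0666).

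CDKN2C (chromosome 1, 50960745 to 50974634) encodes p18. It had 9.20 and 12.6 CPM in MLL4 KO, against 13.5 and 17.7 CPM in WT. In BAP1 KO it had 7.56 and 4.84 CPM, against 0.78 and 1.56 CPM in control, from 237 and 136 counts in BAP1 KO and 20 and 61 in control. Control was lowest and WT highest, whereas CDKN2B was highest in control and lowest in WT. CDKN2C rose in BAP1 KO by 2.33 ± 0.38 on the log2 scale (adjusted p = 0.00298), a 5.29-fold higher level, while the value in MLL4 KO was -0.53 ± 0.27 (adjusted p = 0.196). The effects differed by -2.86 ± 0.47 (adjusted p = 0.00553). Control was below WT by a log2 difference of -3.66 ± 0.36 (adjusted p = 0.000124), a 13.3-fold lower level, and the calls in BAP1 KO, on the difference and between control and WT held under each alternative tried.

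CDKN2D (chromosome 19, 10566460 to 10568979) encodes p19INK4d. It had 10.7 and 12.5 CPM in MLL4 KO, against 9.62 and 9.91 CPM in WT. BAP1 KO libraries had 10.6 and 9.51 CPM of it, against 4.58 and 5.26 CPM in control. The control libraries were lowest, and the other 6 lay close together. CDKN2D rose in BAP1 KO by 1.03 ± 0.19 (log2, adjusted p = 0.00539) and did not pass in MLL4 KO (0.24 ± 0.18, adjusted p = 0.346). The difference between the effects was -0.78 ± 0.26 (adjusted p = 0.0698). The call in BAP1 KO was lost without control replicate 1 (adjusted p = 0.0735) or control replicate 2 (adjusted p = 0.0511).

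CDKN2A (chromosome 9, 21967752 to 21995324) changed least among the INK4 genes between control and WT. The row with most reads was that of the ARF transcript NM_058195. It had 56.9 and 63.7 CPM in MLL4 KO, against 47.0 and 42.7 CPM in WT. In BAP1 KO it had 47.3 and 53.6 CPM, against 58.9 and 66.9 CPM in control. The groups of each pair did not overlap, but neither knockout passed the test (log2 0.43 ± 0.13 in MLL4 KO, adjusted p = 0.0506, and -0.32 ± 0.13 in BAP1 KO, adjusted p = 0.113). The effects differed by 0.75 ± 0.19 (adjusted p = 0.0272), a call lost without MLL4 KO replicate 2, WT replicate 2 or any 1 of the BAP1 KO replicate 1 and control libraries (adjusted p 0.0505 to 0.151). In MLL4 KO it passed without WT replicate 1 (adjusted p = 0.0363), with upper-quartile scaling, a stricter filter, the longest transcript row or the sum of rows (adjusted p 0.0341 to 0.045), and in BAP1 KO in the fit of its 4 libraries alone (log2 -0.33, adjusted p = 0.0295).

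The p16 transcript NM_000077 shares its later exons with ARF, so the 2 rows count many reads in common. The ARF row exceeded the p16 row by 514 and 494 reads in MLL4 KO, against 300 and 312 in WT, and by 317 and 324 in BAP1 KO, against 241 and 520 in control. As a share of the ARF row this was 20.6% and 23.4% in MLL4 KO, against 24.8% and 22.8% in WT, and 21.4% and 21.5% in BAP1 KO, against 16.0% and 19.9% in control. The share overlapped between MLL4 KO and WT, and both BAP1 KO libraries lay above both control libraries. This excess is a net value, since each transcript has a first exon of its own. The antisense gene CDKN2B-AS1, which runs across CDKN2B and the start of ARF, had 0.69 to 1.90 CPM. Whether the kit kept strand is not stated, so reads from any exon stretch that it shares with CDKN2A or CDKN2B could belong to either gene. Only the spans of the genes were compared, not their exons. Exons of CDKN2A and CDKN2B are also similar in sequence, and the labels do not state how reads that match both were counted.

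CDK6 fell in MLL4 KO and rose in BAP1 KO, while CDK4 passed in neither. CDK6 (chromosome 7, 92604921 to 92836573) had 44.4 and 47.9 CPM in MLL4 KO, against 116 and 128 CPM in WT. It had 121 and 74.8 CPM in BAP1 KO, against 47.9 and 51.8 CPM in control. MLL4 KO and control shared the low range, and the BAP1 KO libraries were farther from each other than those of any other group. CDK6 fell by 1.40 on the log2 scale in MLL4 KO (SE 0.20, adjusted p = 0.00701) and rose by 0.97 ± 0.20 in BAP1 KO (adjusted p = 0.00865), with a difference of -2.37 ± 0.28 (adjusted p = 0.00154). The calls in MLL4 KO and on the difference held under each alternative tried. The call in BAP1 KO was lost without BAP1 KO replicate 1 (log2 0.59, adjusted p = 0.0557), control replicate 1 (adjusted p = 0.0863) or control replicate 2 (adjusted p = 0.0643).

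CDK4 (chromosome 12, 57747727 to 57752310) had 146 and 161 CPM in MLL4 KO, against 160 and 180 CPM in WT. It had 135 and 163 CPM in BAP1 KO, against 160.2 and 160.5 CPM in control. Both pairs of groups overlapped. The log2 fold change was -0.15 ± 0.13 (adjusted p = 0.446) in MLL4 KO and -0.11 ± 0.13 (adjusted p = 0.605) in BAP1 KO, and its sign in BAP1 KO flipped without BAP1 KO replicate 1. Part of TSPAN31, with 67.1 to 95.9 CPM, overlaps CDK4, so some reads could belong to either gene. The CDK4 promoter is shown because MYC, a factor that binds the E-box CACGTG and is known to raise CDK4, fell in both knockouts. In the RefSeq window of GRCh38.p14 (chr12:57752261-57752560, minus strand), capitals mark the E-boxes, which read the same on both strands:
CDK4: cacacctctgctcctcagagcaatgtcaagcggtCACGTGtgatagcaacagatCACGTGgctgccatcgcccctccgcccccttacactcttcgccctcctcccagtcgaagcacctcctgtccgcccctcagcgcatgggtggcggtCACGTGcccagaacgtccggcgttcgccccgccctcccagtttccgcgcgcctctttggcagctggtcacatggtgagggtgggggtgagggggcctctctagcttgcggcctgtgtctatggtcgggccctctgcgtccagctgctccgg
The window holds 3 E-boxes, a number that 0.094% of the 35116 windows reach, while 7.26% hold at least 1. MYC had 283 and 234 CPM in MLL4 KO, against 398 and 403 CPM in WT (log2 -0.63 ± 0.16, adjusted p = 0.0308), and 93.6 and 131 CPM in BAP1 KO, against 287 and 292 CPM in control (log2 -1.36 ± 0.17, adjusted p = 0.000749). MYC was lower in both knockouts, and CDK4 had no call in either. Binding to these letters was not measured here.

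CCND3 (chromosome 6, 41934933 to 42050035) had 35.3 and 26.7 CPM in MLL4 KO, against 37.0 and 45.1 CPM in WT. It had 25.2 and 30.9 CPM in BAP1 KO, against 14.1 and 14.8 CPM in control. The BAP1 KO range overlapped that of MLL4 KO, and control was lowest. CCND3 rose in BAP1 KO by 0.95 ± 0.19 (log2, adjusted p = 0.00682), while the value in MLL4 KO was -0.40 ± 0.18 (adjusted p = 0.136), and the effects differed by -1.36 ± 0.26 (adjusted p = 0.0100). The call in BAP1 KO was lost without BAP1 KO replicate 2 (adjusted p = 0.0505), control replicate 1 (adjusted p = 0.0711) or control replicate 2 (adjusted p = 0.0643), and that on the difference without either control library (adjusted p = 0.0595 and 0.0544). The CCND3 row with most reads, NM_001287427, exceeded NM_001136126 by 27.6% and 23.7% of its reads in MLL4 KO, against 29.5% and 30.0% in WT, and by 23.1% and 27.5% in BAP1 KO, against 13.1% and 15.9% in control. This excess was smallest in the control libraries.

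CCND1 (chromosome 11, 69641156 to 69654474) had the most reads of the 10 genes. It had 948 and 902 CPM in MLL4 KO, against 756 and 1653 CPM in WT. In BAP1 KO it had 766 and 784 CPM, against 817 and 840 CPM in control. WT replicate 2 stood far above the other 7 libraries, which lay between 756 and 948 CPM. The log2 fold change in MLL4 KO was -0.38 ± 0.30 (adjusted p = 0.389), and this library decided it: the value was -0.84 (adjusted p = 0.00241) without WT replicate 1 and 0.29 (adjusted p = 0.204) without WT replicate 2. In BAP1 KO the value was -0.10 ± 0.30 (adjusted p = 0.847). CCND2, the remaining D cyclin, had no read in any library, and 3 reads, the upper limit that a count of 0 allows, come to 0.0683 to 0.118 CPM.

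**Figure D2:**
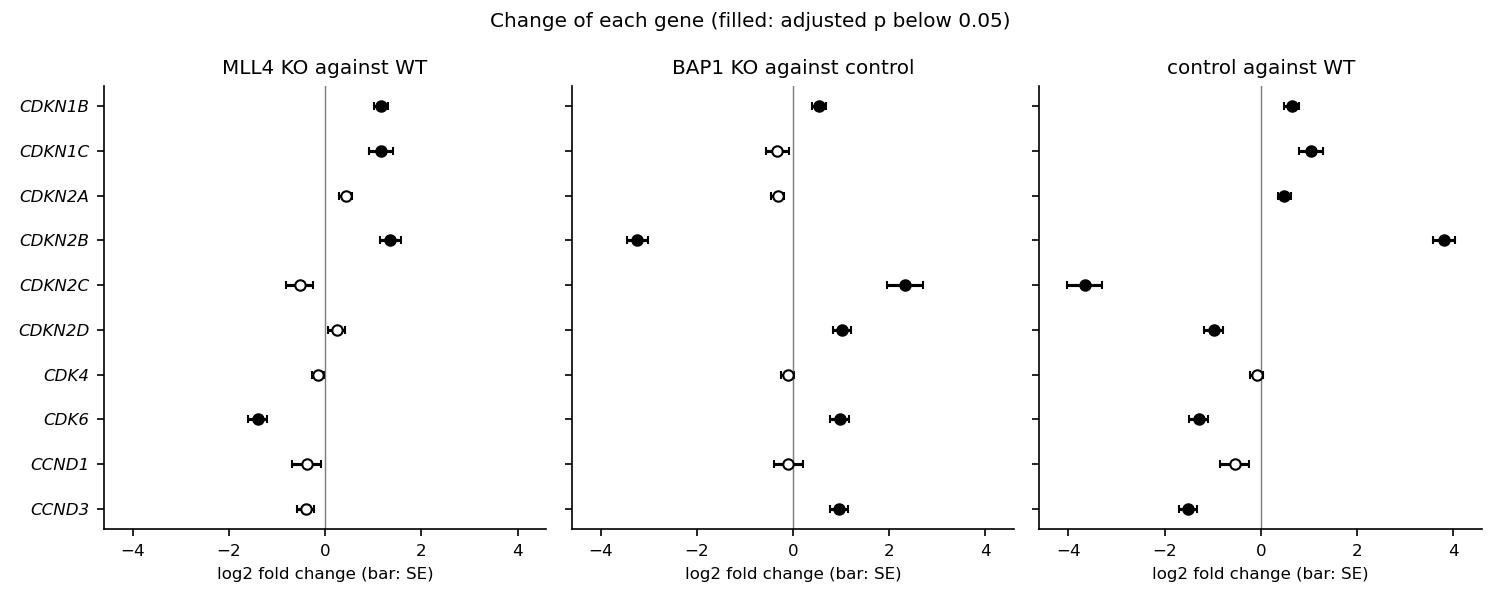
Log2 fold change of the 10 genes (rows) for MLL4 KO over WT, BAP1 KO over control and control over WT; horizontal lines are standard errors and filled points have an adjusted p below 0.05. CDKN2B stands at 1.35, -3.24 and 3.81, and CDKN2C at -0.53, 2.33 and -3.66.

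Over the 10 genes, 4 were called in MLL4 KO (CDKN1B, CDKN1C and CDKN2B higher, CDK6 lower), where 19.1% of all tested genes were called (9.13% higher, 10% lower). In BAP1 KO 6 were called (CDKN1B, CDKN2C, CDKN2D, CDK6 and CCND3 higher, CDKN2B lower), where 22.4% of all tested genes were (12.1% higher, 10.4% lower). The effects of the knockouts differed for 6 genes, where 16.1% of all tested genes were called (7.75% higher, 8.32% lower): CDKN1C, CDKN2A and CDKN2B were higher in MLL4 KO relative to BAP1 KO, and CDKN2C, CDK6 and CCND3 lower. The libraries of the compared groups did not overlap for 8 of the 10 genes in MLL4 KO (60.3% of all tested genes), 9 in BAP1 KO (72.2%) and 8 between control and WT (73.6%), so non-overlap was common over all genes. The median log2 fold change of the 10 genes was 0.05 in MLL4 KO and 0.23 in BAP1 KO, against 0.004 and 0.01 over all tested genes. With upper-quartile scaling, the split of all calls in MLL4 KO was 1886 higher and 1211 lower, against 1536 and 1683 with TMM, and the 4 called genes of the 10 had the same directions.

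Between control and WT, 8 of the 10 genes were called, where 39.6% of all tested genes were (19.9% higher, 19.7% lower): CDKN1B, CDKN1C, CDKN2A and CDKN2B were higher in control, and CDKN2C, CDKN2D, CDK6 and CCND3 lower. CDKN1C exceeded WT by 1.05 ± 0.25 (log2, adjusted p = 0.00943) and CDKN2A by 0.49 ± 0.13 (adjusted p = 0.0168), while CDK6 was at -1.29 ± 0.20 (adjusted p = 0.00118), CDKN2D at -0.98 ± 0.19 (adjusted p = 0.00353) and CCND3 at -1.51 ± 0.19 (adjusted p = 0.000386). This comparison and that of BAP1 KO share the control libraries, so an error in control moves both, in opposite directions. The calls between control and WT were lost for CDKN1B without control replicate 1 (adjusted p = 0.0708), for CDKN1C without control replicate 2 (adjusted p = 0.0745), and for CDKN2A without WT replicate 2 (adjusted p = 0.0630) or control replicate 2 (adjusted p = 0.162).

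**Figure D3:**
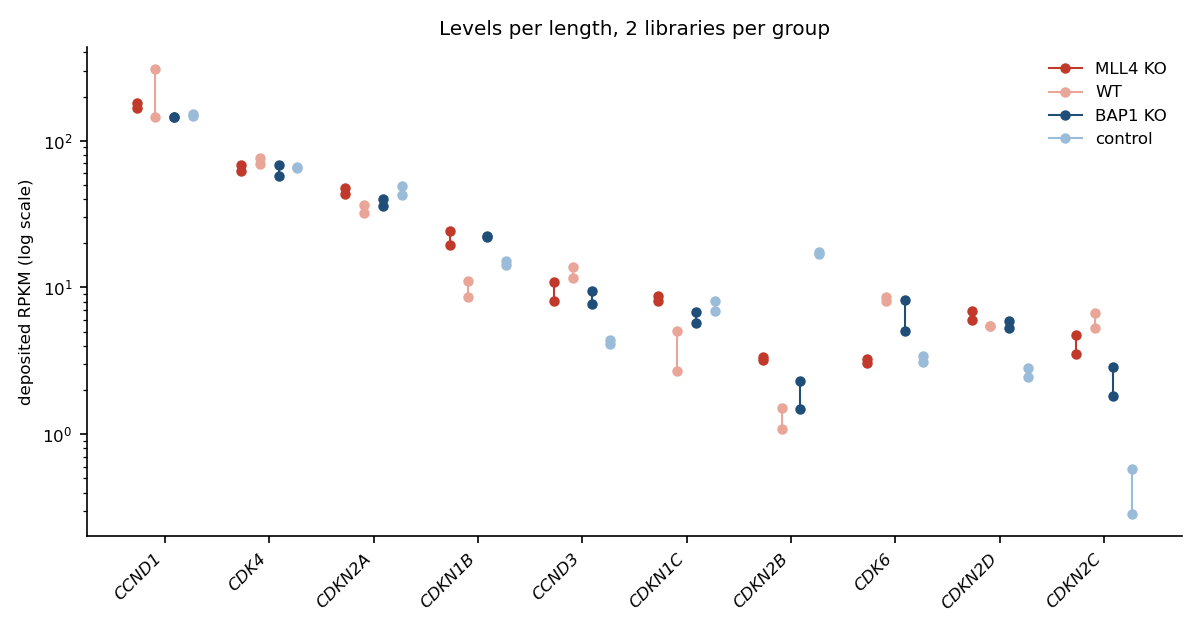
Deposited RPKM of the 10 genes on a log axis, by library in MLL4 KO, WT, BAP1 KO and control, with genes ordered by their mean. CCND1, CDK4 and CDKN2A are the highest in each group, and CDKN2B moves between 1.09 and 17.4 RPKM.

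Levels of different genes were compared per length, in the deposited RPKM. CCND1, CDK4 and CDKN2A were, in this order, the highest of the 10 genes in all 4 groups, and the libraries of these neighbours did not overlap. CCND1 had 168 to 179 RPKM in MLL4 KO, 145 to 307 in WT, 144 to 145 in BAP1 KO and 146 to 152 in control, and CDK4 had 57.7 to 76.0 RPKM over the 8 libraries. In 4th place stood CDKN1B in MLL4 KO (19.4 to 24.2 RPKM) and BAP1 KO (22.1 to 22.2 RPKM), CCND3 in WT (11.7 to 13.7 RPKM) and CDKN2B in control (17.0 to 17.4 RPKM). CDKN2B was last in WT (1.09 to 1.51 RPKM) and in BAP1 KO (1.49 to 2.30 RPKM), where it overlapped CDKN2C (1.83 to 2.89 RPKM). CDK6 was last in MLL4 KO (3.05 to 3.24 RPKM), overlapping CDKN2B (3.18 to 3.34 RPKM), and CDKN2C was last in control (0.285 to 0.576 RPKM). The neighbours CCND3 and CDKN1C in MLL4 KO, CDKN1B and CDK6 in WT, and CDKN2C and CDKN2D in WT overlapped as well. In BAP1 KO the chain of neighbours CCND3, CDK6, CDKN1C and CDKN2D overlapped from each gene to the next.

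Of 18 tested partners of these genes in the RB pathway, 2 rose and 7 fell in MLL4 KO, and 5 rose and 1 fell in BAP1 KO, with median log2 fold changes of -0.44 in MLL4 KO and 0.09 in BAP1 KO. Over all tested genes, 19.1% were called in MLL4 KO and 22.4% in BAP1 KO. CDC25A, the phosphatase that activates CDK2, fell in MLL4 KO (-1.42 ± 0.27, adjusted p = 0.0145), as did CCNE1, a cyclin of CDK2 (-0.96 ± 0.22, adjusted p = 0.0220), and the E2F factor genes E2F3 (-0.76 ± 0.18, adjusted p = 0.0220) and E2F2 (-0.74 ± 0.17, adjusted p = 0.0231). In BAP1 KO, CDK2 (0.97 ± 0.14, adjusted p = 0.00191), E2F2 (1.06 ± 0.19, adjusted p = 0.00495), E2F1 (1.02 ± 0.19, adjusted p = 0.00597) and RB1 (0.78 ± 0.16, adjusted p = 0.00930) rose. E2F2 thus fell in MLL4 KO and rose in BAP1 KO, a difference of -1.80 ± 0.26 (adjusted p = 0.00319). Between control and WT, 3 partners were higher and 11 lower, where 39.6% of all tested genes were called.

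Of 12 proliferation genes, 8 fell in MLL4 KO and 11 rose in BAP1 KO, and all 12 were lower in control than in WT, with medians of -0.68, 1.09 and -2.54 on the log2 scale. Of all tested genes, 10% were called lower in MLL4 KO, 12.1% higher in BAP1 KO and 19.7% lower in control than in WT. MKI67, a marker of cycling cells, had 737 and 642 CPM in MLL4 KO, against 959 and 1056 CPM in WT. BAP1 KO libraries had 452 and 316 CPM of it, against 119 and 113 CPM in control. It missed the threshold in MLL4 KO (adjusted p = 0.0504) and rose in BAP1 KO (1.72 ± 0.18, adjusted p = 0.000324). In control, where the summed level of the proliferation genes was lowest, CDKN2C, CDKN2D and CCND3 were at their lowest and CDKN2B at its highest. In MLL4 KO, where 8 of the 12 fell, CDK6 fell and CDKN2B rose. There CDKN2C (log2 -0.53), CDKN2D (0.24) and CCND3 (-0.40) had no call. CDK6 was called in the direction of the proliferation genes in each comparison: -1.40 in MLL4 KO, 0.97 in BAP1 KO and -1.29 between control and WT. A link between these levels was not tested. The epithelial markers had median log2 fold changes of 0.26 in MLL4 KO, -0.69 in BAP1 KO and 0.69 between control and WT. A link of these markers to the 10 genes was not tested either.

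Of 18 genes that act on the turnover of p27 or D cyclin protein, 1 rose and 3 fell in MLL4 KO, and 2 rose and 1 fell in BAP1 KO. These shares are close to the 19.1% and 22.4% called over all tested genes. SKP2, the ubiquitin ligase subunit that marks p27 for degradation, rose in BAP1 KO (1.15 ± 0.23, adjusted p = 0.00745) and had -0.56 ± 0.21 in MLL4 KO (adjusted p = 0.0941). The scaffold CUL1 fell in MLL4 KO (-0.60 ± 0.14, adjusted p = 0.0214), and RNF123, a subunit of another ligase of p27, rose there (0.55 ± 0.15, adjusted p = 0.0340). FBXO4, which recognises cyclin D1, fell in BAP1 KO (-0.89 ± 0.24, adjusted p = 0.0260).

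Of 19 transcriptional regulators of the inhibitors, 4 rose and 3 fell in MLL4 KO, and 3 rose and 4 fell in BAP1 KO. Of all tested genes, 19.1% were called in MLL4 KO and 22.4% in BAP1 KO. CBX7, a Polycomb protein that represses the CDKN2A locus, rose in both: it had 49.4 and 62.0 CPM in MLL4 KO, against 26.5 and 23.1 CPM in WT. CBX7 had 45.6 and 44.6 CPM in BAP1 KO, against 23.8 and 21.9 CPM in control. The log2 fold change of CBX7 was 1.17 ± 0.15 (adjusted p = 0.00504) in MLL4 KO and 0.98 ± 0.15 (adjusted p = 0.00213) in BAP1 KO. BMI1, another Polycomb repressor of that locus, fell in both (-0.72 ± 0.17, adjusted p = 0.0221, in MLL4 KO and -1.21 ± 0.17, adjusted p = 0.00138, in BAP1 KO). MXI1, a MYC antagonist, rose in MLL4 KO (0.69 ± 0.14, adjusted p = 0.0145), as did ID1, an inhibitor of helix-loop-helix factors (1.27 ± 0.27, adjusted p = 0.0212). EZH2, the H3K27 methyltransferase, fell in MLL4 KO (-0.42 ± 0.12, adjusted p = 0.0364) and rose in BAP1 KO (0.66 ± 0.12, adjusted p = 0.00458), a difference of -1.08 ± 0.17 (adjusted p = 0.00417).

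**Figure D4:**
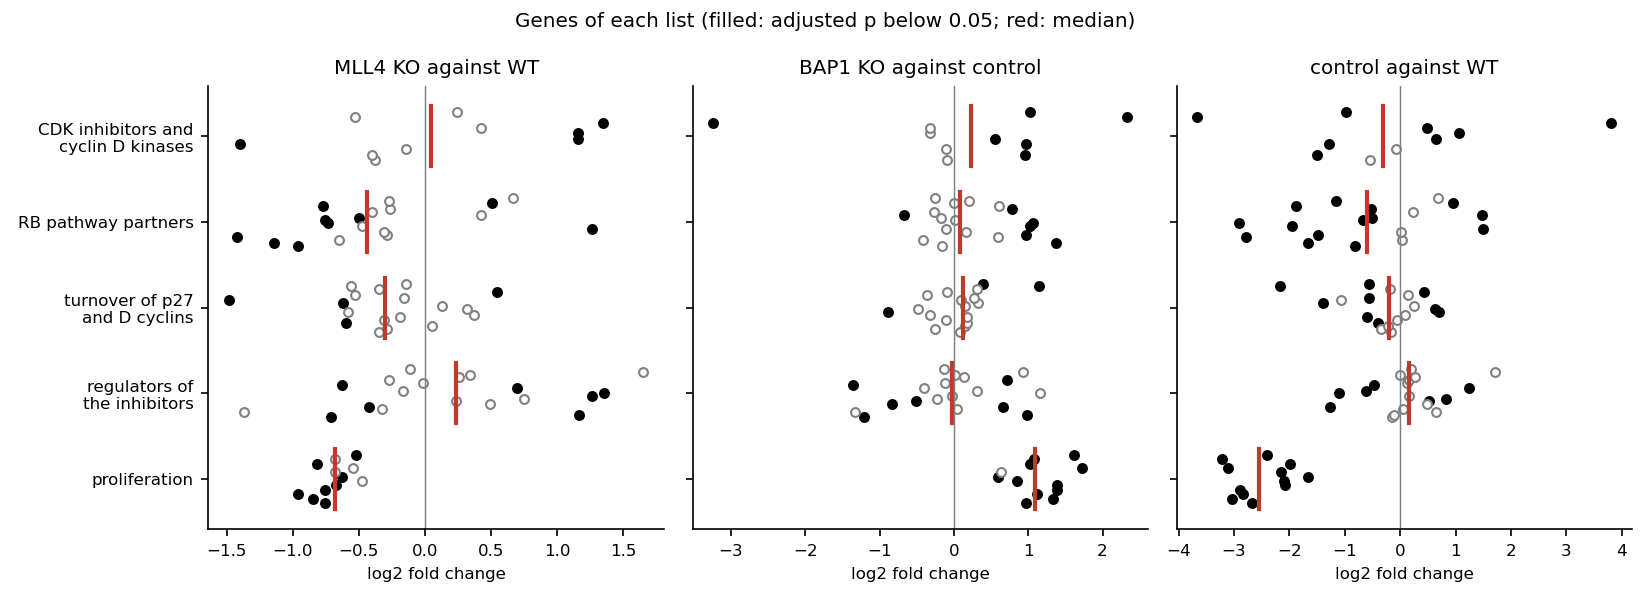
Log2 fold change of each gene (dot) of the 10 genes, their RB pathway partners, turnover genes, transcriptional regulators and proliferation genes for MLL4 KO over WT, BAP1 KO over control and control over WT; red lines are medians. The proliferation genes have medians of -0.68, 1.09 and -2.54, and the 10 genes spread to both sides of 0 in each comparison.

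Genes beside the inhibitors and CCND1 were looked at to see whether changes extended past them. Of 14 tested neighbours, 5 rose and 0 fell in MLL4 KO, and 1 rose and 2 fell in BAP1 KO, where 19.1% and 22.4% of all tested genes were called. The 2 that fell in BAP1 KO, LTO1 and FGF19, lie beside CCND1, and no tested neighbour of an inhibitor was called lower there. APOLD1, whose nearest end lies 3.55 kb beyond CDKN1B (chromosome 12, 12725917 to 12791466), rose with CDKN1B in both knockouts. It had 9.51 and 11.3 CPM in MLL4 KO, against 2.64 and 1.75 CPM in WT. In BAP1 KO it had 7.59 and 6.55 CPM, against 1.18 and 1.69 CPM in control. The log2 fold change of APOLD1 was 2.26 ± 0.26 (adjusted p = 0.00338) in MLL4 KO and 2.26 ± 0.29 (adjusted p = 0.000861) in BAP1 KO. Between control and WT, APOLD1 had no call (-0.55 ± 0.33, adjusted p = 0.214), while CDKN1B was higher in control (0.64 ± 0.15, adjusted p = 0.00898). GPR19, which lies 0.122 kb from CDKN1B on the other side, had 0.214 to 1.69 CPM over the 8 libraries and no call in either knockout.

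Beside CDKN2A, the methylthioadenosine phosphorylase gene MTAP (26.6 kb away) rose in MLL4 KO, with 683 and 468 CPM against 253 and 291 CPM in WT (1.08 ± 0.18, adjusted p = 0.0101). It had 182 and 214 CPM in BAP1 KO, against 176 and 178 CPM in control (0.16 ± 0.18, adjusted p = 0.557). MTAP thus had no call in BAP1 KO, where CDKN2B fell. It was lower in control than in WT (-0.62 ± 0.18, adjusted p = 0.0221), where CDKN2B was higher. On the far side of CDKN2B, 438 kb away, DMRTA1 had at most 0.795 CPM in any library. DMRTA1 had no call in BAP1 KO (-3.22 ± 1.06, adjusted p = 0.0513) and was called higher in control than in WT (3.18 ± 1.07, adjusted p = 0.0358). Beside CDKN1C, the potassium channel gene KCNQ1 (34.1 kb away) and the tRNA synthetase gene CARS1 (115 kb away) rose with it in MLL4 KO (1.64 ± 0.38, adjusted p = 0.0261, and 1.26 ± 0.24, adjusted p = 0.0155). The genes PHLDA2 (42.5 kb away, 0.30 ± 0.17, adjusted p = 0.226) and NAP1L4 (58.7 kb away, -0.44 ± 0.15, adjusted p = 0.0686), which lie between CDKN1C and CARS1, had no call there. The antisense RNA gene KCNQ1OT1 (0.15 ± 0.19, adjusted p = 0.584) had none either. It lies within the span of KCNQ1, so without strand, reads from any exon stretch they share could belong to either gene. FAF1, 0.478 kb from CDKN2C, had no call in either knockout, with values of -0.13 ± 0.18 in MLL4 KO (adjusted p = 0.621) and -0.12 ± 0.18 in BAP1 KO (adjusted p = 0.665). FGF19, a growth factor gene 43.8 kb from CCND1, rose in MLL4 KO (1.94 ± 0.21, adjusted p = 0.00318) and fell in BAP1 KO (-1.13 ± 0.21, adjusted p = 0.00533), while CCND1 itself had no call.

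The genes whose pattern was most like that of each called member were ranked by Pearson's r of log2(CPM + 1) over the 8 libraries, among 12000 genes with a mean of at least 5 CPM. These values describe the pattern only, since the 8 points fall into 4 groups and both genes of a pair were read in the same libraries. TMEM132B (r = 0.986), MTA3 (0.973) and STN1 (0.973) were nearest to CDKN1B, and PTP4A3 (0.987), RNF130 (0.986) and ZBED3 (0.979) to CDKN1C. SIL1 (0.982), LTBR (0.981) and S100A16 (0.978) were nearest to CDKN2B, NDRG3 (0.994), STARD8 (0.991) and KATNAL1 (0.990) to CDKN2C, and MAST3 (0.996), TNFAIP8L1 (0.988) and NR2F2 (0.984) to CDKN2D. For CDK6 they were SPRTN (0.970), CEP295 (0.967) and the readthrough gene BUB1B-PAK6 (0.962), and for CCND3 they were GLA (0.999) and MAPRE2 (0.992). TMEM132B averaged 11.2 CPM in MLL4 KO, against 0.869 CPM in WT, and 14.3 CPM in BAP1 KO, against 4.59 CPM in control.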

How the data were processed

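RNA was measured in 8 poly(A) libraries of HCT116, prepared from 1 µg of total RNA per the labels' protocols; the series' 15 ChIP-seq samples were not used here. The sample titles gave group and replicate number. The deposited tables list RefSeq transcripts with their raw read counts and RPKM, per the file headers, and RPKM is the authors' scaling by length and depth. Per the submitters' processing notes the build was hg38 and the tools included bcl2fastq, STAR, Bowtie2 and SICER 1.1. Counting tool, annotation version and strand setting: not given in the sources used here.

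Transcript identifiers were matched to symbols in the RefSeq table of GRCh38.p14, and 605 of 88819 rows without a symbol (0.23% to 0.252% of counts) were left out. The row with the highest mean count stood for each of 28105 genes. The counts were tested with edgeR 4.0.16 in R 4.3.3: filterByExpr (16831 genes), TMM, 1 quasi-likelihood model (robust) with a mean per group over 8 libraries, two-sided, Benjamini-Hochberg adjustment over all tested genes, threshold 0.05. Every adjusted p is from this model or, for an alternative, its refit. Standard errors were taken as |log2 fold change| / sqrt(F). The model was also run on simulated counts that had the same spread in all groups. That run could not show whether a shared spread suits these libraries. Depth was 24.8 to 42.2 M gene counts (31.6 to 54.8 M reads behind RPKM), and limits from a count of 0 (3 counts) cover counting error only. Promoters are RefSeq sequences: 8 of the 10 genes matched, with 14 windows. Alternatives were other scalings, filters, transcript rows, DESeq2 1.42.0, fits of 4 libraries, a replicate block and leaving out each library. Chosen after seeing the data were the legacy dispersion estimate and a crossed block.

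The 10 genes and the lists were chosen with earlier results of these data known. Named beside the 10 genes were CDKN1A, CCND2, KMT2D and BAP1, up to 4 called genes per list with the smallest p, and the 3 most alike genes per called gene, of which 1 is not reported here. MYC, SKP2, MKI67, E2F2, GPR19, FAF1, KCNQ1, KCNQ1OT1, PHLDA2, NAP1L4, LTO1, EZH2, KRT8, EPCAM, COL1A1 and CD68, in comparisons where this rule did not name them, and TMEM132B's levels and the promoter windows were chosen after their values were seen. The same holds for DMRTA1, and for MTAP and APOLD1 between control and WT.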

Additional observations from a re-analysis of the deposited data

Results flagged for a closer look

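For 6 of the 10 genes the effect of MLL4 KO differed from that of BAP1 KO by the test of the difference itself (edgeR, Benjamini-Hochberg over all tested genes). The same test called 16.1% of all tested genes. On the log2 scale, MLL4 KO minus BAP1 KO was 4.589 for CDKN2B (adjusted p = 0.000128), 1.485 for CDKN1C (adjusted p = 0.0213) and 0.7462 for CDKN2A (adjusted p = 0.0272). It was -2.861 for CDKN2C (adjusted p = 0.00553), -2.374 for CDK6 (adjusted p = 0.00154) and -1.356 for CCND3 (adjusted p = 0.0100). Each knockout was set against its own unedited group, and control and WT differed for each of these 6 genes, so the level of the unedited group enters each value. Under each alternative tried, the calls for CDKN2B, CDKN2C and CDK6 held.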

How the results depend on the processing

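Of 720 values of the 10 genes under alternatives, 669 kept direction and side of the threshold, 32 lost the call, 10 gained one and 9 changed sign. The sign changes were in CDK4 and CCND1, neither called by the model of 8 libraries. For CDK4, the difference between the knockouts became 0.065 with upper-quartile scaling, 0.03 without MLL4 KO replicate 1, 0.05 without WT replicate 2 and 0.10 without BAP1 KO replicate 2, from a lowest value of -0.17 without 1 library. Without 1 library, its value in BAP1 KO ranged from -0.25 to 0.026 and between control and WT from -0.17 to 0.0066. For CCND1 the values without 1 library ranged from -0.84 to 0.29 in MLL4 KO, from -0.74 to 0.39 for the difference and from -0.998 to 0.13 between control and WT, each positive only without WT replicate 2. Fitted on its 4 libraries alone, MLL4 KO against WT called 60 genes and 1 of the 10 (CDK6; CDKN1B 0.0663, CDKN1C 0.0958 and CDKN2B 0.0666 as adjusted p), and BAP1 KO against control called 6659 genes; the cause was not tested. Leaving out 1 library gave 530 (without MLL4 KO replicate 2) to 5290 called genes in MLL4 KO, 1076 to 5015 in BAP1 KO, 681 to 4426 for the difference and 3253 to 7267 between control and WT; the other 3 lowest counts were without control replicate 2, and all 4 highest without WT replicate 1. Of the 10 genes it gave 3 to 6, 2 to 6, 3 to 8 and 6 to 9 calls in the same order. With a replicate block the counts were 2360, 3312, 2185 and 6193 genes and, of the 10, 4, 6, 6 and 8, and no call of theirs changed. The numbers pair nothing by the labels; deviations of same-numbered libraries correlated at -0.189 for MLL4 KO and WT and at -0.00096 for BAP1 KO and control over 16831 genes. The crossed pairing called 3366 genes in MLL4 KO and 4 of the 10. DESeq2 called 3635, 3956, 3154 and 6418 genes. Depth limits CDKN2C most, with 20 and 61 counts in control.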
